A study of Mus musculus with 26 samples.

Results

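The regions described here are places in the mouse genome where fragments of RNA were enriched with an antibody against 5-hydroxymethylcytosine (5hmC), and that lie outside every annotated gene. The peak lists of 13 immunoprecipitated (IP) libraries were pooled. A peak was kept when its summit, the middle of its 200 bp interval, lay outside every gene of any type in GENCODE M1 and when the interval held no perfect tandem run. A run was a unit of 1 to 4 nt repeated without error over at least 18 nt, or 20 nt for units of 4. Of 56538 peaks, 5206 (9.21%) were kept, which is 60.4% of the 8621 intergenic peaks. Overlapping intervals were merged into 2488 regions, of 23295 regions (10.7%) formed by all peaks on the reference chromosomes. They are called run-free intergenic regions below, and their peaks run-free intergenic peaks. Beyond being called as peaks, they were chosen by position and sequence, not by enrichment or by group.

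The study asked where 5hmC lies in the RNA of mouse embryonic stem cells (ESCs), how this changes in early differentiation, and what Tet proteins contribute. WT ESC (n = 3), TKO ESC lacking Tet1, Tet2 and Tet3 (n = 3) and WT EB, embryoid bodies kept for 4 days in ES medium without LIF (n = 3), were compared. Tet2-KI ESC (n = 2) and Tet2deltaRBD-KI ESC (n = 2) were made from mouse ESCs, whose parent line the study's methods do not name. Both have a tag at the C-terminus of Tet2 and, in the latter, a Tet2 without its RNA-binding domain (RBD). All ESCs grew in the same serum medium with LIF. The knock-in lines were picked clones, and the TKO line had been made earlier. The study describes its hMeRIP-seq replicates as independent experiments, and the labels do not tie libraries to cultures or clones. The p-values measure the spread between these libraries. Peak lists hold no expression values, so the cells could not be checked against markers. Each list was called against that library's own input. The lists held 498 to 10383 peaks, with WT EB replicate 1 and TKO ESC replicate 1 (964 peaks) as the shortest, and the sequencing depth behind them is unknown here.

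5hmC in RNA arises when Tet dioxygenases oxidise 5-methylcytosine. RNA from outside annotated genes has several known sources: polymerase runs on past the poly(A) site before it stops, promoters of coding genes also fire in the opposite direction, and many long noncoding RNAs and precursors of microRNAs are annotated only in part. Simple tandem repeats are scattered through intergenic DNA, and telomeric repeats are themselves transcribed into RNA.

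The first thing the data show is that being free of perfect short-unit runs did not make these regions free of repeats. An interval was called repeat-like when at least 70% of 80 consecutive bases matched the base exactly 1 unit further on, for some unit of 1 to 60 nt. By this measure 1182 of the 2488 regions (47.5%) were repeat-like, against 4.52% of 4974 intervals of the same width taken 1000 bp to either side, 8.10% of run-free genic regions and 96.0% of intergenic regions with a perfect run. The best unit was 5 nt or longer in 1052 of the 1182 (89.0%), most often 6 nt (238 regions) or 8 nt (159 regions), and an even number in 1124. The remaining 1306 regions were not repeat-like. The 2 kinds differed in most of what follows, so values are given for each.

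The sequences of 5 of the regions named by rule show the range. They are printed 5′ to 3′ in mm9 at the peak with the highest fold enrichment, on the plus strand or, for Anpep, on the strand of the gene, which is minus. Capitals mark the highest-scoring stretch of A and G, in which A or G counts 1 and any other base -3. The regions near Mtf2 and Anpep are repeat-like with interrupted GA, GT or CAGA units, that near Ncrna00085 is rich in A and G without being repeat-like, and those near Sntb2 and Hnrnpa1 are neither.
Mtf2 region, chr5:108493240-108493439, plus strand: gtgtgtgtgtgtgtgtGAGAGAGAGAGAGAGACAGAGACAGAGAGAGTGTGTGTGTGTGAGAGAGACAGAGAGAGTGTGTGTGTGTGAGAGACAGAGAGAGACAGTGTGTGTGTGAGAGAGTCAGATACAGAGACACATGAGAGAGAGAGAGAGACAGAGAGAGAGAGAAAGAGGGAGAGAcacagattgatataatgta
Anpep region, chr7:86962928-86963127, minus strand: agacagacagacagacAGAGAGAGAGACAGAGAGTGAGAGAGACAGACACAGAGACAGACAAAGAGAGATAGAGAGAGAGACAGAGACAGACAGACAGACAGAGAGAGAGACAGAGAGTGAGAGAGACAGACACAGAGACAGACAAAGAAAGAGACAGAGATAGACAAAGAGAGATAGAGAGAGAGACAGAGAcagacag
Ncrna00085 region, chr17:17966159-17966358, plus strand: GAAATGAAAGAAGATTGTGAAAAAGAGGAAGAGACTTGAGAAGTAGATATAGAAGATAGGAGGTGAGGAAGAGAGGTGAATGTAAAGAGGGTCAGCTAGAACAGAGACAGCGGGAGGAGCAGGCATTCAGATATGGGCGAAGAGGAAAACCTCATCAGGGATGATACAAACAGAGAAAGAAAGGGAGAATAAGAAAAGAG
Sntb2 region, chr8:109538840-109539039, plus strand: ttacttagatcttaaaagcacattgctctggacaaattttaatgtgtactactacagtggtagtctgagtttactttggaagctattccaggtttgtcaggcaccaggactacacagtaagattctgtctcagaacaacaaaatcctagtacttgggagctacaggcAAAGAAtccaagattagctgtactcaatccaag
Hnrnpa1 region, chr15:103076050-103076249, plus strand: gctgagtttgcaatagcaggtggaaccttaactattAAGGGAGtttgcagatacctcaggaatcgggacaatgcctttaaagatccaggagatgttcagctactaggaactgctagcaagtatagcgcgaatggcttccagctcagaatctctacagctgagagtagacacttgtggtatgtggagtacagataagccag

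A repeat with a unit of 6 nt passes a rule that stops at 4 nt, as telomere-type repeats do. Regions with at least 3 TTAGGG units in a row, on either strand, numbered 22 (0.884%), and 10 of them were present in 2 or more libraries. They held 67 of the 5206 run-free intergenic peaks (1.29%), against 45 of 42944 run-free genic peaks (0.105%). Every library had at least 1 such intergenic peak, with 6 to 12 in the WT ESC libraries, 5 to 10 in the knock-in libraries, 2 in each TKO ESC library and 1 to 3 in the WT EB libraries. The counts are not scaled to list length, which was 4395 to 7113 peaks in WT ESC and 3318 to 10383 in the knock-in groups. It was 964 to 4323 in TKO ESC and 498 to 3532 in WT EB. Among the 8 regions present in the most libraries, those near Ajap1 and Lphn2 belong here.

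Run-free intergenic peaks took the largest share of the list in WT ESC. They were 618 of 4395 peaks (14.1%), 891 of 7113 (12.5%) and 903 of 6499 (13.9%) in the WT ESC libraries. In TKO ESC they were 83 of 964 (8.61%), 276 of 4323 (6.38%) and 295 of 3262 (9.04%). In WT EB they were 22 of 498 (4.42%), 99 of 1831 (5.41%) and 136 of 3532 (3.85%). The 3 WT ESC shares lay above every other library, since Tet2-KI ESC had 9.39% and 6.38% and Tet2deltaRBD-KI ESC 7.78% and 5.36%. The mean share of the 3 WT ESC libraries was 13.5% ± 0.872 (SD), that of the 3 TKO ESC libraries 8.01% ± 1.43 and that of the 3 WT EB libraries 4.56% ± 0.789.

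In numbers, WT ESC had 4.19-fold as many of these peaks as TKO ESC and 11.9-fold as many as WT EB (log2 2.07 and 3.57, geometric means), where all other peaks of the lists were 2.32-fold and 3.61-fold as many. The size of this difference followed list length: with lists held to equal length the log2 differences in number were 0.86 and 1.52. Without TKO ESC replicate 1 the log2 difference from TKO ESC was 1.47, and without WT EB replicate 1 that from WT EB was 2.77. The share was 5.48 percentage points higher than in TKO ESC and 8.94 points higher than in WT EB, and 4.89 and 7.10 points at equal length. Each of the differences in number and in share had a two-sided exact permutation p of 0.1, the smallest that 3 against 3 libraries can give. Among the libraries whose descriptions start with 1703, a prefix the labels do not explain, the share differed by 5.50 and 8.58 points and the log2 number by 1.65 and 2.95, with 2 libraries a group (exact permutation p = 0.33 each, the smallest possible). Peaks show enrichment over input and not amounts of RNA. In these bulk libraries, fewer cells making an RNA, less of it per cell and less 5hmC on it cannot be told apart. Tet2-KI ESC and Tet2deltaRBD-KI ESC overlapped in share, with a difference of 1.31 points (exact permutation p = 0.667), and had 975 and 369 against 361 and 178 peaks.

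The higher share in WT ESC stood mostly in the repeat-like peaks. These were 10.3%, 7.23% and 8.89% of the WT ESC lists, 6.02%, 1.53% and 4.84% in TKO ESC and 1.00%, 2.89% and 0.934% in WT EB, with no overlap between WT ESC and either group. Peaks that were not repeat-like were 3.78%, 5.30% and 5.00% in WT ESC, 2.59%, 4.86% and 4.2% in TKO ESC, with 3.41%, 2.51% and 2.92% in WT EB. WT ESC and TKO ESC overlapped here, with a difference of 0.809 points (exact permutation p = 0.4), against 4.67 points (exact permutation p = 0.1) for the repeat-like peaks. WT ESC and WT EB did not overlap in either kind, with differences of 1.75 and 7.19 points. The knock-in libraries had 4.07% to 5.60% of peaks that were not repeat-like, which overlaps WT ESC, and 1.30% to 4.68% of repeat-like peaks, which lies below WT ESC. Inside coding genes the repeat-like share of run-free peaks was also highest on average in WT ESC, at 14.9% ± 2.96 (SD, n = 3) against 11.8% ± 6.45 for TKO ESC, which overlaps, and 7.52% ± 3.14 for WT EB, which does not. The split by repeat-likeness was chosen after the data were seen.

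**Figure D1:**
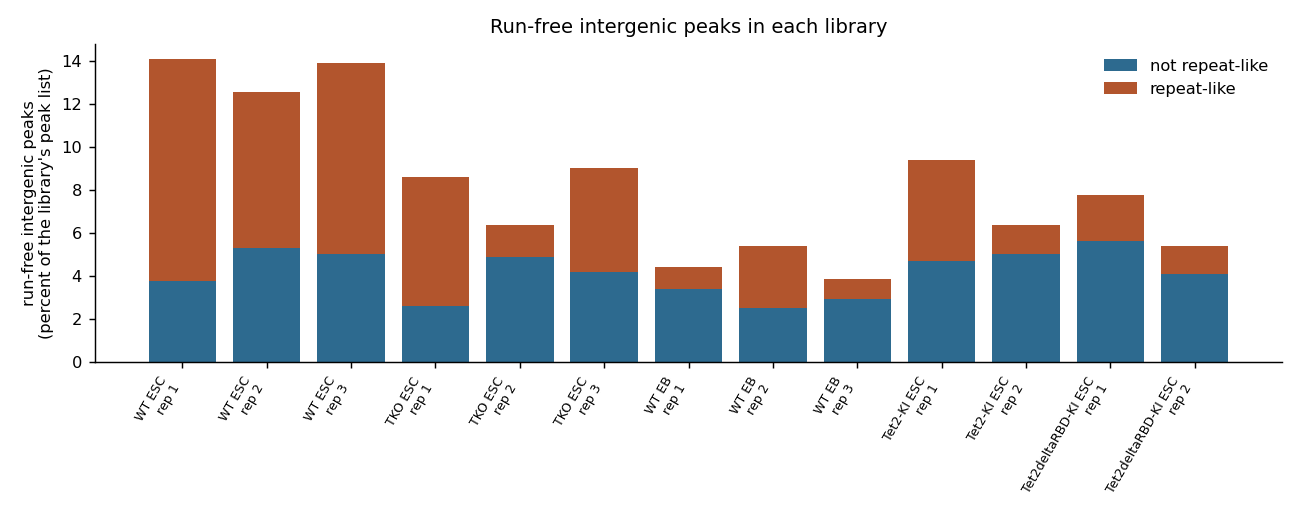
Each bar is an IP library, and its height is the share of that library's peak list, in percent, taken by run-free intergenic peaks, split into peaks that were repeat-like and those that were not. The 3 WT ESC bars reach 12.5% to 14.1%, above all others, while the part that was not repeat-like stays between 2.51% and 5.60% in all 13 libraries.

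Most regions were seen in a single library. Of the 2488, 1378 (55.4%) were present in 1 library, 493 in 2, 265 in 3 and 1 in all 13, and for all 23295 regions the share in 1 library was 53.6%. By group, 1603 regions (64.4%) were present in at least 1 WT ESC library, 1141 (45.9%) in Tet2-KI ESC, 505 (20.3%) in TKO ESC, 444 (17.8%) in Tet2deltaRBD-KI ESC and 197 (7.92%) in WT EB. Over all regions the shares were 49.6%, 53.4%, 25.1%, 27.0% and 17.6% in the same order. Regions present in WT ESC alone numbered 877 (35.2%, against 21.1% of all regions), 178 of them in 2 or more libraries. Regions present in all 5 groups numbered 41 (1.65%, against 3.70% of all regions). These counts move with list length. Presence of a run-free region was counted by run-free intergenic peaks alone, and that of all regions by any peak.

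A peak at the same place whose interval held a perfect run did not count as presence of a run-free region. It did count among all regions, which can raise the absent shares of run-free regions beside those of all regions. Regions present in all 3 WT ESC libraries numbered 187, of which 142 were repeat-like. No TKO ESC library had 84 of them (44.9%, 95% exact Clopper-Pearson interval 37.7 to 52.3, which covers counting error only), where 32.3% of all 1530 regions in every WT ESC library were absent in this way. The share was 70 of 142 (49.3%) among repeat-like regions and 14 of 45 (31.1%) among the others, the latter close to the 32.3% of all regions. No WT EB library had 128 of the 187 (68.4%, 61.3 to 75.0), against 55.0% of all regions. Both absent shares depend on how many libraries a region must be in: without any single WT ESC library they were 55.9% to 59.5% for TKO ESC and 77.2% to 77.7% for WT EB. With the 1703 libraries alone they were 59.7% and 79.8%. No share over all regions is given for these settings, so 32.3% and 55.0% are not a background for them. Of the 187, 141 (75.4%) were present in at least 1 knock-in library, as were 1339 of the 1530 (87.5%).

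The reverse was rarer in each pair of groups. Of 18 regions in all 3 TKO ESC libraries, 1 was in no WT ESC library (5.56%, against 1.74% of all regions), and none of the 5 regions in every WT EB library was missing from WT ESC (0 of 5, which allows up to 52.2%, against 2.63% of all regions). Of 176 regions in both Tet2-KI ESC libraries, 71 were in neither Tet2deltaRBD-KI ESC library (40.3%, 33.0 to 48.0, against 35.7% of all regions), and 14 of 83 were so in reverse (16.9%, 9.54 to 26.7, against 15.9%). These shares rest on single libraries. Without TKO ESC replicate 1 the first was 23 of 94 (24.5%), and without WT EB replicate 1 or 2 the share for WT EB was 10.6% or 12.5%. For regions of Tet2-KI ESC, it was 58.8% or 78.1% without replicate 1 or 2 of that group and 71.6% without Tet2deltaRBD-KI ESC replicate 1. The reverse was 27.7% to 46.5% without any 1 of the 4 knock-in libraries. These values without a library have no share over all regions beside them.

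Distance to coding genes separated the 2 kinds of region. Of the 2488, 270 (10.9%) lay within 5 kb downstream of the nearest coding gene and 244 (9.81%) within 5 kb upstream, where 4.72% and 4.91% of the known intergenic bases lie. Regions over 100 kb from any coding gene numbered 727 (29.2%), against 45.5% of the bases. Regions that were not repeat-like carried this departure from the bases. Of those 1306, 16.9% were within 5 kb downstream, 14.2% within 5 kb upstream and 15.4% beyond 100 kb. Of the 1182 repeat-like regions, 4.15%, 4.99% and 44.5% lay there, close to the shares of the bases. The share of repeat-like regions divided by that of the bases was 0.674 to 1.19 in all 12 classes of distance and side.

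**Figure D2:**
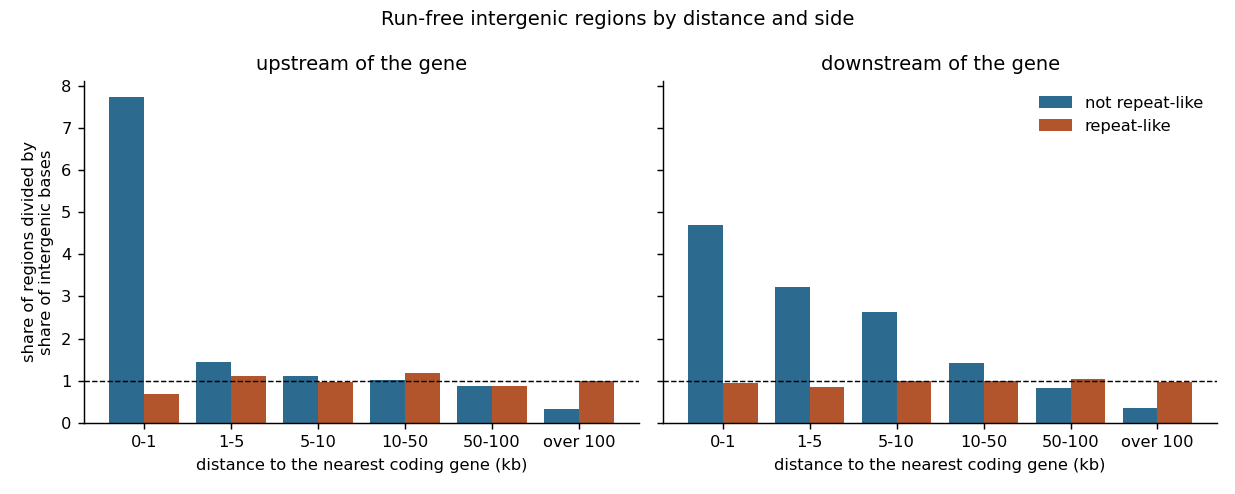
The bars give the share of regions in a class of distance (kb) and side divided by the share of known intergenic bases in that class, for regions that were repeat-like and those that were not, and the dashed line marks a ratio of 1. Regions that were not repeat-like reach 7.73 within 1 kb upstream and 4.70, 3.22 and 2.63 in the 3 nearest classes downstream, while repeat-like regions stay near 1 throughout.

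The side changed with the distance. Within 1 kb of a coding gene, 123 regions were upstream and 84 downstream (40.6% downstream, 95% exact interval 33.8 to 47.6). From 1 to 10 kb, 332 of 546 were downstream (60.8%, 56.6 to 64.9), where 47.7% of the bases lie on that side. Among regions that were not repeat-like this was 259 of 382 (67.8%, 62.9 to 72.5), and among repeat-like regions 73 of 164 (44.5%, 36.8 to 52.5). Neighbouring regions can share a transcript, so these intervals are too narrow. Library by library, the share of run-free intergenic peaks within 5 kb downstream ran from 8.41% to 22.7% and within 5 kb upstream from 5.42% to 29.8%. The downstream share was the higher in 8 of 13 libraries, with a mean difference of -0.148 points (exact sign-flip permutation p = 0.953). When summits within 1 kb of any gene were left out, it was the higher in 11 of 13, with a mean difference of 5.33 points (exact sign-flip permutation p = 0.00195). The libraries share regions and are not independent of each other.

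The share of run-free intergenic peaks within 5 kb downstream was 8.41% to 9.41% in the WT ESC libraries, 9.64% to 16.7% for TKO ESC and 12.1% to 22.7% for WT EB. WT ESC lay below both without overlap, with differences of -3.60 and -9.69 percentage points (exact permutation p = 0.1 each) and of -4.79 and -7.38 points in the 1703 libraries alone. Without TKO ESC replicate 2 the first was -1.46 points. Both directions turned when lists were held to equal length, to 0.933 and 2.29 points. Tet2-KI ESC and Tet2deltaRBD-KI ESC overlapped, with a difference of 1.15 points (exact permutation p = 1).

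Regions within 1 kb upstream of a coding gene stood apart in composition. Their median G and C content was 70.0%, and 68.3% of the 123 had at least 60% G and C, against 7.56% of all run-free intergenic regions, 4.96% of those 1 to 5 kb upstream and 5.56% of those within 5 kb downstream. The GC box GGGCGG, a motif common in promoters rich in CpG, was found on the strand of the gene in 43 of the 244 regions within 5 kb upstream (17.6%) and on the other strand in 40 (16.4%), where 5.46% of all regions hold it on a given strand. Within 5 kb downstream it was in 3.70% and 3.33%. Of the 123 regions within 1 kb upstream, 51.2% were present in Tet2deltaRBD-KI ESC, 46.3% in WT ESC and 44.7% in Tet2-KI ESC, where all run-free intergenic regions had 17.8%, 64.4% and 45.9%.

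The share of peaks rich in G and C differed between libraries. Peaks with at least 60% G and C made up 44.9% of the run-free intergenic peaks of Tet2deltaRBD-KI ESC replicate 2 and 31.8% of the 22 in WT EB replicate 1, but 14.4% in Tet2deltaRBD-KI ESC replicate 1, 13.3% in TKO ESC replicate 1 and 1.01% to 10.8% in the other 9 libraries. Inside coding genes, the same share was 56.8% in Tet2deltaRBD-KI ESC replicate 2 and 2.92% to 29.7% elsewhere, so the composition of its whole list stands apart. Among peaks with less than 60% G and C, an alternative added after the data were seen, Tet2-KI ESC minus Tet2deltaRBD-KI ESC was 1.67 in log2 number (1.24 with all peaks), 2.51 points in share (1.31) and -0.0212 points in downstream share (1.15). Regions present in both Tet2deltaRBD-KI ESC libraries and no Tet2-KI ESC library included 2 of this kind. They lay 368 bp upstream of 1700081L11Rik (84.0% G and C) and 184 bp upstream of Reps1 (74.5%), and their intervals held 35 and 28 CG dinucleotides.

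The regions were biased to purines on 1 strand and pyrimidines on the other. In 1413 of 2488 (56.8%), C and T made up at least 65% of 1 strand, here called a tract, against 6.57% of the intervals 1000 bp away, 20.1% of run-free genic regions and 87.2% of intergenic regions with a run. The rule acts on repeats, so the last comparison is a description. Tracts were 86.7% of repeat-like regions and 29.7% of the others. By library, tracts were 64.4% to 75.4% of run-free intergenic peaks in WT ESC, 52.9% to 71.5% in TKO ESC, 27.3% to 70.7% in WT EB and 23.6% to 60.9% in the knock-in libraries. Median G and C content, by contrast, was 42.5% to 54.5% in the 13 libraries with a mean difference from run-free genic peaks of -0.519 points (exact sign-flip permutation p = 0.767).

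**Figure D3:**
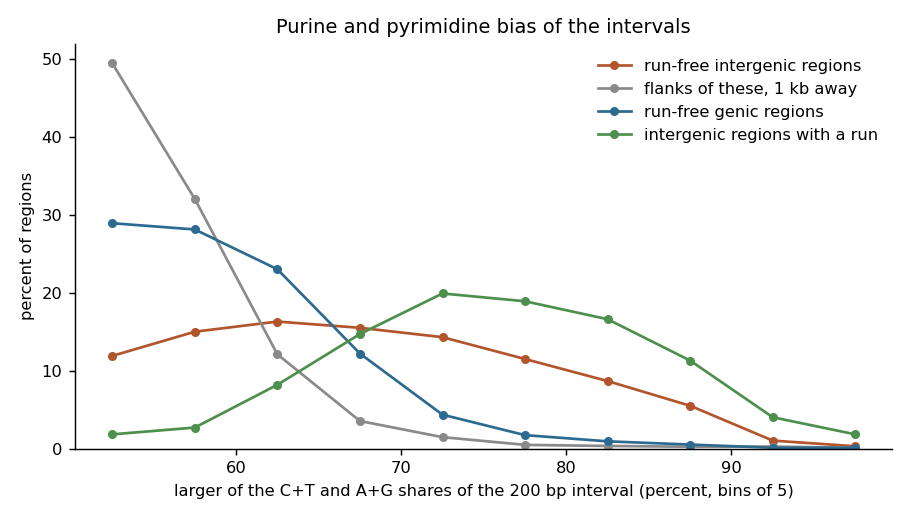
The horizontal axis is the larger of the C+T and A+G shares of an interval (percent, bins of 5) and the vertical axis the percent of regions, for run-free intergenic regions, intervals 1 kb away from them, run-free genic regions and intergenic regions with a perfect run. Run-free intergenic regions lie between the genic regions and those with a run, with 56.8% at 65% or more, where the flanks have 6.57%.

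Inside and just downstream of coding genes, but not upstream, the tract had a preferred strand. Peaks carry no strand, so the tract was read on the strand of the nearest coding gene. Inside coding genes, A and G lay on the strand of the gene in 3029 of 3427 tracts of run-free genic regions (88.4%, 95% exact interval 87.3 to 89.4). The study reports a UC-rich motif at peak centers, with peaks read on the strand of their transcript, so the base class differs. A motif and a share of bases are unlike measures, and the cause was not tested. Within 5 kb downstream this held in 71 of 93 tracts (76.3%, 66.4 to 84.5), and within 5 kb upstream in 49 of 100 (49.0%, 38.9 to 59.2). By distance downstream it was 16 of 21 within 1 kb (76.2%), 55 of 72 from 1 to 5 kb (76.4%), 45 of 76 from 5 to 10 kb (59.2%, 47.3 to 70.4) and 36 of 76 from 10 to 20 kb (47.4%). From 5 to 100 kb upstream it was 194 of 350 (55.4%, 50.1 to 60.7), and from 5 to 100 kb downstream 170 of 330 (51.5%, 46.0 to 57.0). Over 100 kb from a gene it was 51.3%, and on the plus strand of the genome 50.1% of all 1413 tracts were A and G. The downstream share was 46 of 57 (80.7%) in regions that were not repeat-like and 25 of 36 (69.4%) in repeat-like ones.

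The strand preference downstream appeared in all groups. In WT ESC, A and G lay on the gene's strand in 17 of 23, 26 of 33 and 26 of 36 tract peaks within 5 kb downstream. It was 14 of 16 and 15 of 16 in TKO ESC replicates 2 and 3, 4 of 4 and 7 of 7 in WT EB replicates 2 and 3, 28 of 37 and 14 of 17 in Tet2-KI ESC, and 19 of 21 and 6 of 7 in Tet2deltaRBD-KI ESC. TKO ESC replicate 1 had 1 such peak, with A and G on the other strand, and WT EB replicate 1 had none. The share was thus over 50% in 11 of the 12 libraries with such a peak. Within 5 kb upstream it was over 50% in 8 of 12 libraries, where it ran from 37.5% to 70.0%.

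**Figure D4:**
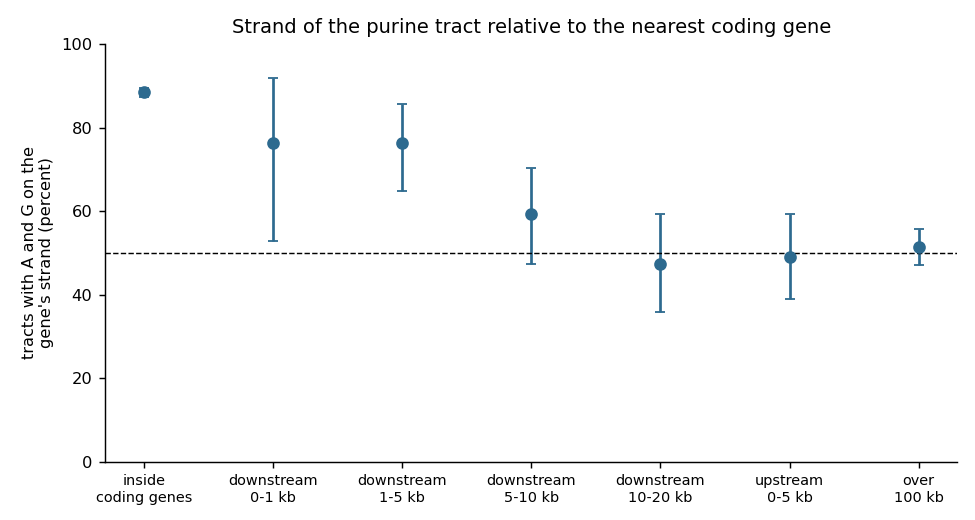
Points give the percent of tracts with A and G on the strand of the nearest coding gene, with 95% exact binomial intervals as bars, for run-free genic regions and for run-free intergenic regions by side and distance, and the dashed line marks 50%. The share is 88.4% inside genes, 76.2% and 76.4% in the first 5 kb downstream, 59.2% from 5 to 10 kb and 47.4% from 10 to 20 kb, and 49.0% within 5 kb upstream.

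The coding genes beside these regions often held a peak of their own. Of 248 genes with a region within 5 kb downstream, 145 (58.5%) had a peak in at least 1 library, as had 121 of 218 genes with a region within 5 kb upstream (55.5%) and 202 of 500 genes nearest to a region over 100 kb away (40.4%). Of all 22238 coding genes, 32.3% had a peak. For 103 of the 270 downstream regions (38.1%), a library with the region also had a peak inside the gene, as for 92 of 244 upstream regions (37.7%) and 175 of 727 over 100 kb away (24.1%). The poly(A) signals AATAAA and ATTAAA were in 8.52% and 8.15% of the downstream regions on the strand of the gene and in 7.41% and 10% on the other, and 7.29% and 5.76% of all regions held them on a given strand.

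The named downstream regions illustrate the range. Sntb2 encodes a syntrophin, an adaptor of the dystrophin complex, and a region 803 bp downstream of it (chr8:109538784-109539039) was present in 11 libraries. Its fold enrichment over input was 16.0, 19.9 and 17.3 in WT ESC, 8.17, 18.0 and 20.8 in TKO ESC and 9.06 and 11.3 in 2 WT EB libraries. WT ESC and TKO ESC overlapped, and both WT EB values lay below WT ESC. Hnrnpa1, which encodes a splicing regulator, and Nfe2, a transcription factor of blood cells, converge on 2 regions in 10 libraries each. The region 1704 bp downstream of Hnrnpa1 (chr15:103076025-103076264) had 7.63, 9.12 and 10.6 in WT ESC, 8.62 in 1 TKO ESC library and 6.34 and 8.24 in 2 WT EB libraries. The region 1837 bp downstream of Nfe2 (chr15:103076698-103076934) had 11.3, 14.0 and 6.88 in WT ESC, and both were in all 4 knock-in libraries.

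A region 4146 bp downstream of Sod2, the mitochondrial superoxide dismutase (chr17:13214723-13215433), was present in all ESC libraries and in no WT EB library. It had 9.74, 7.80 and 8.74 in WT ESC and 4.10, 8.91 and 6.94 in TKO ESC, which overlap. It is a tandem repeat with a unit of 37 nt, matched at 98.8% of bases. The region 1340 bp downstream of Gm17635 was likewise missing only from WT EB and TKO ESC replicate 1, and it was not repeat-like. It had 21.1, 8.45 and 20 in WT ESC and 19.4 and 46.8 in TKO ESC.

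Upstream, a region 2219 bp before the olfactory receptor gene Olfr986 (chr9:39992327-39992581) had the highest median fold enrichment of the 8 regions in the most libraries (26.4). It had 26.3, 39.4 and 32 in WT ESC, 15.3, 35.9 and 26.4 in TKO ESC and 14.9 and 11.2 in 2 WT EB libraries, and both WT EB values lay below all ESC values. It was at the limit of 70% for repeat-like. The region 1437 bp before Ncrna00085 (chr17:17966067-17966370) lies 906 bp before Mir99b, the first hairpin of a microRNA cluster, and had 8.23, 10.9 and 14.9 in WT ESC, 8.72, 9.76 and 4.84 in TKO ESC and 4.98 and 13.6 in 2 WT EB libraries. All 3 groups overlapped there. The regions before Zfp459, a zinc finger gene (1112 bp), Gm17067 (2906 bp) and Dmxl1 (3647 bp) were in 10 libraries each, and that before Dmxl1 was in every ESC library and no WT EB library, with 2.48 to 4.95.

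Further out, the only region present in all 13 libraries lay 28427 bp upstream of Slc4a7, a bicarbonate transporter gene, and was repeat-like. Its fold enrichment was 8.94, 12.6 and 3.93 in WT ESC, 6.96, 18.5 and 19.3 in TKO ESC and 10.5, 12.3 and 6.52 in WT EB, and the 3 groups overlapped. The telomere-type region 220079 bp downstream of Ajap1 had 4.81, 5.29 and 6.64 in WT ESC and 13.9, 22.2 and 7.07 in TKO ESC, with every TKO ESC value above every WT ESC value, and 2.99 and 3.03 in 2 WT EB libraries. The telomere-type region 63405 bp upstream of Lphn2 (chr3:148715543-148715910) had 12.2, 17.9 and 7.47 in WT ESC and 9.39, 6.19 and 8.46 in TKO ESC, which overlap. After the Ajap1 region, the regions over 100 kb from a coding gene in the most libraries were nearest to Gm3944 (10 libraries) and Gm17391 (9 libraries). Ajap1 and Lphn2 regions had sequence found in several places in the genome (median 14 and 9 copies of their 32-mers), and whether reads there came from other copies was not tested.

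**Figure D5:**
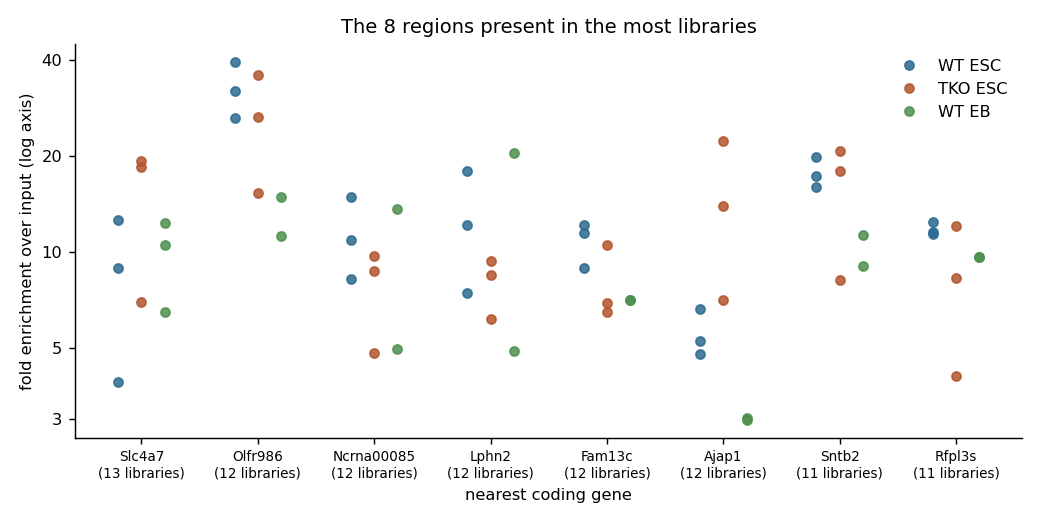
Each point is the fold enrichment over input (log axis) in a library of WT ESC, TKO ESC or WT EB, for the 8 regions present in the most libraries, named by the nearest coding gene, and a library without the region has no point. WT ESC and TKO ESC overlap at 7 of the 8 regions, and at the Ajap1 region all TKO ESC points (7.07 to 22.2) lie above the WT ESC points (4.81 to 6.64).

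The 5 regions named for presence in every WT ESC and no TKO ESC library were all repeat-like, as were 70 of the 84 of that kind. The region 1354 bp upstream of Mtf2, a Polycomb protein of ESCs (chr5:108493235-108493450), had 9.05, 14.3 and 10.2 in WT ESC, was in 3 knock-in libraries and was in no WT EB library. The region 3657 bp downstream of Anpep, an aminopeptidase gene (chr7:86962927-86963172), had 7.58, 8.98 and 11.3 and was in WT EB replicate 2 at 5.76. The regions nearest to Amph, Nup35 and Gm9972 had 7.55 to 13 in WT ESC. The single region in every TKO ESC and no WT ESC library lay 4188 bp downstream of Olfr90 (chr17:37217841-37218120), had 8.39, 5.77 and 13.8, was in both Tet2-KI ESC libraries and was not repeat-like.

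Of the 128 regions in every WT ESC and no WT EB library, 5 were named by rule, and 3 of these were not repeat-like. The first lay 124043 bp downstream of Klf5, a pluripotency factor (chr14:99836537-99836775), with 11.0, 12.8 and 14.0 in WT ESC and 6.05 and 10.3 in 2 TKO ESC libraries. The others were those near Gm17635 and Slc37a3, the latter with 8.14, 12.8 and 19.3 in WT ESC and 19 and 13 in TKO ESC. Of the 71 regions in both Tet2-KI ESC libraries and no Tet2deltaRBD-KI ESC library, 5 were named by rule, and those near Gja1, the gene of connexin 43, and Arl9 were in 9 libraries each. Those near Dach1, Erap1 and Ms4a4b were in 7 or 8.

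Few run-free intergenic regions lay in clusters with others of their kind. With gaps of at most 5 kb, 152 regions (6.11%, 95% exact interval 5.20 to 7.12) formed 44 clusters of 3 or more, where 21.3% of all regions did. These shares are not alike, since run-free regions were clustered among 2488 regions and all regions among 23295. A sparser set gives fewer clusters at the same gap. The largest cluster spanned 4760 bp (chr17:39980088-39984847) and held 10 regions, the nearest 345 bp downstream of AY036118, annotated as a pseudogene. Its median G and C content was 71.0%, none of its regions was repeat-like, and it was present in 1 WT ESC, 2 Tet2-KI ESC and 2 Tet2deltaRBD-KI ESC libraries, with no TKO ESC or WT EB library. Of its 10 regions, 6 were in both Tet2deltaRBD-KI ESC libraries, and the composition of replicate 2 given above touches these.

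The next cluster held 8 regions over 10835 bp between Josd2, a deubiquitinase gene, and 2310044H10Rik (chr7:51729183-51740017), which converge, so each region lay downstream of its gene. All 8 were tracts, with a median of 84.0% purines or pyrimidines, and none was repeat-like. The cluster was in all 3 WT ESC, 2 TKO ESC, 1 WT EB and 1 Tet2-KI ESC libraries and in no Tet2deltaRBD-KI ESC library. A cluster of 5 regions lay upstream of Gpr1, before the imprinted gene Zdbf2 (chr1:63265643-63272203), in 11 libraries. Its leading region, 7719 bp upstream of Gpr1, was in all 11, and no other region of it was in more than 2. Clusters of 4 regions lay upstream of Las1l, a factor of ribosome assembly (chrX:93160792-93163873, 9 libraries), where all 4 were tracts, and downstream of Agfg1 (chr1:82897907-82908575, 7 libraries), where 1 was. Both lacked repeat-like regions.

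Of the other clusters of 4, 2 lay nearest to noncoding genes and are given here, chosen after their values were seen. The first lay among the hairpins of the Mir290 cluster, the main microRNAs of ESCs (chr7:3218244-3220287), with regions 143 bp before Mir290, 83 bp after Mir291a, 220 bp after Mir291b and 157 bp before Mir293. The region before Mir290 was in 1 WT ESC, both Tet2-KI ESC and 1 Tet2deltaRBD-KI ESC library, and the others were in 1 Tet2-KI ESC library each. No TKO ESC or WT EB library had any. Another lay 4733 to 7046 bp downstream of a SNORD113 gene, upstream of Rtl1 and in the imprinted Dlk1-Dio3 domain (chr12:110932388-110934900), in 5 libraries. Its 4 regions were in 1 or 2 libraries each.

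Most gene lists had few or no such regions close by. Of 22238 coding genes, 640 (2.88%) were the nearest coding gene of a region within 10 kb. For pluripotency factors this was 3 of 22 (13.6%): Klf4, Klf5 and Tbx3. Klf4 had 2 regions, 4848 and 5736 bp upstream, each in 1 WT ESC library at 5.37 and 5.26. Tbx3 had a region 9766 bp downstream in 2 WT ESC libraries (4.34 and 5.26), and Klf5 had a region 119 bp downstream in 1 Tet2-KI ESC library. Of 144 ribosomal protein genes, Rpl14, Rps14 and Rps24 had a region (2.08%), and that 5443 bp upstream of Rps14 was in all 3 WT ESC libraries and 1 Tet2-KI ESC library. None of 12 early differentiation genes, 67 replication-dependent histone genes or 39 Hox genes did.

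The fold enrichment of run-free intergenic peaks was close to that of genic peaks. The median value of the intergenic peaks was 6.25, 5.20 and 5.39 in WT ESC, 6.46, 6.96 and 6.27 in TKO ESC and 5.62, 6.92 and 6.52 in WT EB. Run-free genic peaks had 6.20, 5.91 and 5.81, then 5.98, 7.35 and 6.87, and 5.43, 7.43 and 7.13. The mean within-library log2 difference was -0.06 (0.958-fold), with the intergenic peaks higher in 3 of 9 libraries (exact sign-flip permutation p = 0.0938). Without TKO ESC replicate 1 it was -0.08 (exact sign-flip permutation p = 0.0312). Against intergenic peaks with a run it was 0.05 (exact sign-flip permutation p = 0.219). All 3 WT ESC medians of the intergenic peaks lay at or below 6.25, and those of TKO ESC at or above 6.27. These medians cover called peaks alone, in lists of unequal length. The knock-in lists carry no fold enrichment.

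Sequence that occurs in several places was common. The 32-mers of a region had a median of 2 or more copies in the genome in 564 regions (22.7%), against 5.23% of run-free genic and 40.8% of intergenic regions with a run, and 10 or more copies in 141. This held for 303 of 1182 repeat-like regions (25.6%) and 261 of 1306 (20%) of the others. By library it was 18.3% to 36.4% of the peaks. Of the regions at the edge of the rule, 734 intergenic peaks had a longest run of 15 to 17 nt and were kept, and 428 had a run of 18 to 20 nt and were left out. They were close in tract share (medians 74.5% and 75.0%) and in the share from WT ESC libraries (60.4% and 64%), where 46.3% of all run-free intergenic peaks came from WT ESC.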

How the data were processed

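Fragmented total RNA was immunoprecipitated with an anti-5hmC antibody and sequenced, with an input for each IP. According to the study's methods, the authors removed reads of rRNA, tRNA and low complexity, trimmed with Trimmomatic, mapped with STAR to mm9 with a RefSeq transcriptome, and called peaks with MACS2 in each IP library against its input (q below 0.05). Versions are not given in the sources used here. For motifs the authors gave a peak the strand of its transcript and set aside peaks without one, and the deposited lists carry no strand. The deposited lists give 200 bp intervals around summits and, in 9 of 13 libraries, the authors' fold enrichment, a ratio of IP over input. The 13 inputs have no list analysed here, reads and depth were not analysed, and 163 peaks off the reference chromosomes were left out.

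Peaks were placed on GENCODE M1 and the NCBIM37 (mm9) sequence in Python (version 3.11.15; pysam 0.24.0, pandas 2.3.3, numpy 2.4.6), and intervals that overlapped by at least 1 bp were merged. The side of a region is that of the nearest coding gene at its middle summit. Copies are exact matches of 32-mers on both strands. Groups were compared by exact two-sided permutation of libraries within each pair of groups, differences within libraries by exact sign flips (scipy 1.17.1), both tested on simulated data. No 2 of the 13 lists shared more than 1.97% of identical intervals, so none was a duplicate. Same-numbered libraries did not deviate together over regions (correlations from -0.08 to 0.03).

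Regions were named by rule: the 8 in the most libraries (ties by median fold enrichment), the 5 in every WT ESC and no TKO ESC or no WT EB library whose lowest WT ESC fold enrichment was highest, the 5 in both Tet2-KI ESC and no Tet2deltaRBD-KI ESC library found in the most other libraries, up to 3 of each reverse, the 5 on each side within 5 kb and the 3 over 100 kb in the most libraries, and the 5 clusters with the most regions. The members, gene lists and rules were chosen with earlier results of these data known. Alternatives covered the annotation, run length, distances, list length, single libraries and, added after the data were seen, imperfect repeats. Of the regions and sequences these rules name, 1 region and 2 sequences are not reported here.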

Additional observations from a re-analysis of the deposited data

How the results depend on the processing

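Of 324 values from alternative settings, 269 did not change direction or call, or lay within the spread. Differences in number and share between WT ESC and TKO ESC or WT EB kept their direction in every setting run, but the log2 number was 0.86 and 1.52 in place of 2.07 and 3.57 at equal list length. Counts of peaks follow list length, which depth can set and which cannot be told apart from it here. With 3 libraries a group no exact test can pass 0.05. In each case below the cause was not tested.

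The downstream share of WT ESC peaks minus that of TKO ESC or WT EB turned to 0.933 and 2.29 points at equal list length, and that of the knock-in groups to -1.75 with the nearest gene of any type and -0.0212 among peaks with less than 60% G and C. The mean downstream minus upstream share turned to 1.01 with whole intervals outside genes, 5.33 at 1 kb or more from every gene, 1.68 within 20 kb, 1.93 with genes of any type and 1.89 without imperfect repeats, the last added after the data were seen. The downstream share of regions was 61.7% at 1 kb or more from every gene and 40.6% within 1 kb. The G and C difference from intergenic peaks with a run, 0.0192 points, turned to -0.231 with whole intervals outside genes, -0.538 at 1 kb or more and -0.0769 with a run of 12 nt. The log2 fold enrichment difference passed 0.05 against genic peaks with whole intervals outside genes (-0.07, exact permutation p = 0.0312), and against peaks with a run at 12 nt (0.07, exact permutation p = 0.00781) or with library means (0.08, exact permutation p = 0.0195).

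The share of replicated WT ESC regions absent from TKO ESC was 65.8% when 2 of 3 libraries sufficed, 59.7% with the 1703 libraries alone and 31.8% without imperfect repeats. For WT EB it was 83.2% and 79.8% under the first 2. Absent shares under these settings, and those without single libraries below, have no share over all regions beside them. In reverse for TKO ESC it was 0% of 7 regions at or above the median fold enrichment. The share of regions in clusters was 7.82% with a run of 12 nt, 4.02% and 13.5% with gaps of 2 and 20 kb, and 9.82% without imperfect repeats.

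Leaving out each library in turn gave log2 differences in number of 1.47 to 2.39 for TKO ESC and 2.77 to 4.09 for WT EB, lowest without replicate 1 of each, and downstream share differences of -4.97 to -1.46 and -12.9 to -7.57 points. It gave 48.7% to 66.8% absent from TKO ESC and 72.2% to 79.7% from WT EB, highest without TKO ESC replicate 3 and WT EB replicate 2. For the knock-in groups it gave 42.0% to 78.1%, and 27.7% to 46.5% in reverse. The reverse shares for TKO ESC and WT EB were 4.17% to 24.5% and 0% to 12.5%. The knock-in differences ran from 0.54 to 1.94 in log2 number, from -0.190 to 2.82 points in share and from -3.16 to 5.45 in downstream share. Downstream minus upstream ran from -0.854 to 1.34, G and C from -0.896 to 0.396 against genic peaks and -0.583 to 0.354 against peaks with a run, and log2 fold enrichment from -0.08 to -0.05 and 0.04 to 0.08.

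Same-numbered libraries did not deviate together, so the numbers do not pair the samples. A replicate block left the differences at 2.07 and 3.57 (log2 number) and 5.48 and 8.94 points, with an exact permutation p of 0.25, the smallest 3 pairs allow, and for the knock-in groups at 1.24 and 1.31 with 0.5.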
